A study of Mus musculus with 4 samples.

Results

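Pdgfra encodes the alpha receptor for platelet-derived growth factor (PDGF), and its level was followed across the fibroblasts of the mouse small intestine. It is 1 of 3891 genes with a complete row in the processed table, which holds 17630 single cells. On GRCm38 GENCODE places the gene on the plus strand at chr5:75152292-75198215. All cells were from wild type, adult male C57Bl/6 mice of 8 weeks, with no treatment named in the labels. Small intestines were digested with Liberase TL, and the sort kept live gp38+ (podoplanin) single cells that lacked CD45, CD31 and EpCAM. The 2 droplet libraries, 10X_1 and 10X_2, held 2547 and 14344 cells, and the 2 Smartseq2 plates, SS2_1 and SS2_2, held 360 and 379 cells. How many mice gave each library is not given in the sources used here, so the library served as the replicate and p-values measure only the spread between these libraries.

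PDGFRA is a receptor tyrosine kinase that binds PDGF dimers and signals through the MAP kinase and PI3 kinase pathways. In the intestine, PDGF made by the epithelium reaches mesenchymal cells that carry the receptor. Cells lying directly under the epithelium are known for high PDGFRA and for secreting bone morphogenetic proteins (BMPs) and non-canonical Wnt ligands, whereas fibroblasts around the crypts carry less PDGFRA and secrete the BMP antagonist Gremlin 1, which favours stem cells.

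Ranked by rank correlation over cells at their own depth, in the weaker of the 10X libraries, the genes closest to Pdgfra were Abcc9 and Kcnj8, which encode the SUR2 and Kir6.1 subunits of an ATP-sensitive potassium channel. They lie side by side on the minus strand, Kcnj8 at chr6:142564837-142571614 and Abcc9 at chr6:142587862-142702315, with 16247 bases between them. The 250 bases before the RefSeq start of Pdgfra and of these 2 neighbours are shown because these 2 headed the ranking, although at 2000 UMIs a cell Sox6 led the ranking and Kcnj8 was not among its first 6. Each is written 5′ to 3′ on the strand of its gene from RefSeq's GRCm38.p6 annotation, at chr5:75152001-75152250 (plus strand) for Pdgfra, chr6:142702275-142702524 (minus strand) for Abcc9 and chr6:142571615-142571864 (minus strand) for Kcnj8. Gene spans are those of GENCODE and windows start from RefSeq's own starts, so the Abcc9 window reaches into the GENCODE span of that gene and the Pdgfra window ends before the GENCODE start. Capitals mark the single match to any of the motifs searched.
Pdgfra: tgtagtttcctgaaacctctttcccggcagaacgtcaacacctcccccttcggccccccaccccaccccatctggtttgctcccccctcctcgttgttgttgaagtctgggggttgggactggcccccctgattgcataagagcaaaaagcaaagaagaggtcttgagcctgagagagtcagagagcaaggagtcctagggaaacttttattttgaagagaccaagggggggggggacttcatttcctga
Abcc9: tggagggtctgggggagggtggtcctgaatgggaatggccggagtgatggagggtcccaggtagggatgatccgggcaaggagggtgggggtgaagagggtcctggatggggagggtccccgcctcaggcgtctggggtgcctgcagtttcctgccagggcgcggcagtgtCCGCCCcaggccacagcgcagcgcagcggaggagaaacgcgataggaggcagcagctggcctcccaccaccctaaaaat
Kcnj8: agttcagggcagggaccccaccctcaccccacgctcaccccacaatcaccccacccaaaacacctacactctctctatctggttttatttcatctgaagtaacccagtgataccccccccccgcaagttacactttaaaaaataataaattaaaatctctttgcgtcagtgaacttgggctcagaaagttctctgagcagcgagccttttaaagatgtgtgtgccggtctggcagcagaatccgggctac

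The 3 promoters differed in base composition, with 54.4% G and C before Pdgfra, 66.8% before Abcc9 and 49.2% before Kcnj8, against a median of 52.4% over 32851 RefSeq promoters of the same length. On both strands 6 motifs were searched, and the share of all promoters that hold each was 32.7% for GGGCGG, 12.4% for TATAAA, 33.8% for CCAAT, 9.42% for AACAAT, 3.17% for TGTTTAC and 0.225% for GACCACCCA. The 3 promoters shared none of these motifs. The one match was GGGCGG in the Abcc9 window, read on the strand opposite to the gene, with 73 bases between it and the start. A match is a run of letters and not a bound site, and a window without one holds no evidence about any factor.

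Pdgfra was detected in most sorted cells. In the 10X libraries a value is the natural log of 1 plus the UMIs (unique molecular identifiers, each counting 1 captured transcript) per 10,000 of the cell's total. The median was 1.59 in 10X_1 and 1.84 in 10X_2, and the maxima were 4.34 and 4.90. The value was above 0 in 87.4% of 10X_1 cells and 89.1% of 10X_2 cells, with a median of 3 and 4 Pdgfra UMIs in a cell and at most 83 and 109. On the Smartseq2 plates, whose values the authors corrected during integration so that some fall below 0, the medians were 1.12 and 1.75 and the maxima 4.28 and 4.44. The 4 libraries thus covered a similar range, with a lower median on SS2_1 than in the others.

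To follow gene dose, 10X cells were placed in 5 bins of Pdgfra value, called here zero (0), low (above 0 to 1.5), intermediate (1.5 to 2.5), high and highest. The limits at 1.5 and 2.5 stand for 3.48 and 11.2 UMIs per 10,000, and the limit between high and highest for 24.8. In 10X_1 the bins held 321, 838, 992, 206 and 190 cells in that order. In 10X_2 they held 1560, 3185, 6116, 1863 and 1620 cells, so the high and highest bins together were a larger share of 10X_2 than of 10X_1. Pooled over the cells of a bin, the level rose from 2.15 UMIs per 10,000 in the low bin through 5.69 and 18.2 to 33.8 in the highest bin of 10X_1, and from 2.27 through 6.21 and 17.1 to 38.1 in 10X_2. Within 0.1 of the limit at 2.5 lay 2.12% of 10X_1 cells and 4.43% of 10X_2 cells.

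Depth differed between the bins. The median total was 4285 UMIs in the zero bin of 10X_1 and 8637 to 10866.5 in its other bins, and 3978.5 in the zero bin of 10X_2 against 7040 to 7975.5 in the rest. Every cell was therefore also thinned to 2000 UMIs, which left 2485 and 14033 cells, and at that equal depth 57.0% and 66.2% of cells had a Pdgfra UMI. Over all cells, totals ranged from 559 to 26890 UMIs in 10X_1 and from 465 to 22450 in 10X_2. Markers of glia, immune cells and epithelium were highest in the zero bin. Summed markers of glia reached 0.569 and 4.0 UMIs per 10,000 there and at most 0.0552 and 0.238 in the other bins of the same library. Summed immune markers were 0.0672 and 1.59 in the zero bin and at most 0.0429 and 0.180 elsewhere. Cells of high doublet score were most frequent in the high bin, at 5.34% in 10X_1 and 22.6% in 10X_2, and 7 cell barcodes occurred in both libraries. Counts of genes without the cells of highest doublet score are given below. The part of the doublets in the marker shares, and of the shared barcodes, was not tested.

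Among the markers of subepithelial cells, Sox6, Bmp7 and Wif1 were rare below a Pdgfra value of 2.5 and frequent above it. Sox6, a transcription factor gene, was detected at 2000 UMIs in 1.41%, 0.119% and 1.54% of the zero, low and intermediate cells of 10X_1, then in 36.2% (95% exact binomial interval 29.5 to 43.3) of high and 55.3% (47.9 to 62.6) of highest cells. In 10X_2 the same 5 shares were 2.49%, 1.10%, 2.71%, 29.5% (27.4 to 31.7) and 54.6% (52.1 to 57.0). Thus Sox6 showed no gradual increase over the lower 3 bins, and in both libraries its first marked rise came between the intermediate and the high bin. The bin limits were preset and the same for both libraries, so this does not place a threshold at 2.5. These intervals, like all others given for shares, cover counting error only.

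Bmp7, a BMP ligand, followed Sox6. At 2000 UMIs it was found in 0.707%, 0.597%, 1.94%, 31.7% and 44.1% of cells from the zero to the highest bin of 10X_1, and in 2.06%, 2.01%, 3.29%, 22.5% and 45.2% in 10X_2. Wif1, a secreted Wnt inhibitor, was found in 0 of 283 zero cells and 0 of 838 low cells of 10X_1, which allows shares of up to 1.06% and 0.358%. It then reached 0.307%, 7.04% and 18.6% in the upper 3 bins of that library, and 0.214%, 0.188%, 0.281%, 4.84% and 17.8% across the bins of 10X_2. Of the 4 subepithelial markers, Wif1 was the one with the steepest relative increase between the high and the highest bin.

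Slitrk6, a gene for a neuronal-type transmembrane protein, behaved differently from the other 3. It was detected at 2000 UMIs in 3.28% of intermediate, 14.6% of high and 12.2% of highest cells in 10X_1, and in 4.20%, 21.5% and 19.9% in 10X_2. In both libraries its share was therefore no larger in the highest bin than in the high one. Other clusters of little Pdgfra gave a range of shares at this depth. In crypt-like cells, of median depth 9200 and 7031 UMIs, Slitrk6 was found in 0.250% of 800 and 0.835% of 2993 cells and Sox6 in 0 of 800, which allows up to 0.375%, and 0.635% of 2993. In villus-like cells Slitrk6 was found in 3.75% and 3.51% and Sox6 in 0.0853% and 0.704%. The shares of both genes in the upper bins lie above these in each library. Smooth muscle-like cells were few and had more Slitrk6, in 3 of 30 and 7.46% of 134 cells, and more Sox6 in 10X_2, at 5.22%, and the 189 mixed cells of 10X_2 had 15.9% and 15.3%.

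The crypt markers fell over the same limit. Grem1, which encodes Gremlin 1, was detected at 2000 UMIs in 42%, 47.9%, 47.5%, 12.6% and 3.72% of cells from the zero to the highest bin of 10X_1, and in 29.0%, 37.2%, 39.6%, 18.1% and 5.74% in 10X_2. Prss23, a serine protease gene, was found in 59.7%, 21.1% and 7.45% of intermediate, high and highest cells of 10X_1 and in 53.5%, 32.8% and 12% of those of 10X_2. Below 2.5 both genes were instead least frequent in the zero bin, so their highest shares lay in the low or the intermediate bin.

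The villus markers did not share a pattern. Fgfr2, a fibroblast growth factor receptor gene, fell from 20.1% of intermediate cells to 8.04% of high and 4.79% of highest cells at 2000 UMIs in 10X_1, and from 26.4% to 14.0% and 5.93% in 10X_2. Lpl, the gene of lipoprotein lipase, was detected in 32.5%, 39.7% and 27.7% of these cells in 10X_1 and in 41.8%, 49.1% and 40.7% in 10X_2. Lpl was thus frequent at every dose of Pdgfra, with its largest share in the high bin of both libraries.

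The mesothelial-like and Fibin markers split the upper bins. Penk, an enkephalin precursor gene, was found at 2000 UMIs in 20.3%, 19.6% and 5.85% of intermediate, high and highest cells of 10X_1 and in 16.4%, 20.2% and 11.9% of those of 10X_2, so its fall came only at the upper limit. Scara5, a scavenger receptor gene, was found in 16.2% and 9.05% of intermediate and high cells and 0 of 188 highest cells of 10X_1, which allows up to 1.60%, and in 14.5%, 8.96% and 1.4% in 10X_2. The Fibin markers increased instead. Chodl, a lectin-like membrane protein gene, was found in 1.74%, 12.1% and 15.4% of these cells in 10X_1 and in 3.30%, 9.51% and 14.5% in 10X_2, and Dner, a Notch-related gene, in 6.14%, 16.1% and 15.4% and in 5.83%, 12% and 14.9%. At full depth, 7 of the 12 markers were found in a larger share of the highest than of the intermediate cells in both libraries and 5 in a smaller share. At 2000 UMIs the counts were 6 and 6, since Lpl changed sides.

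**Figure D1:**
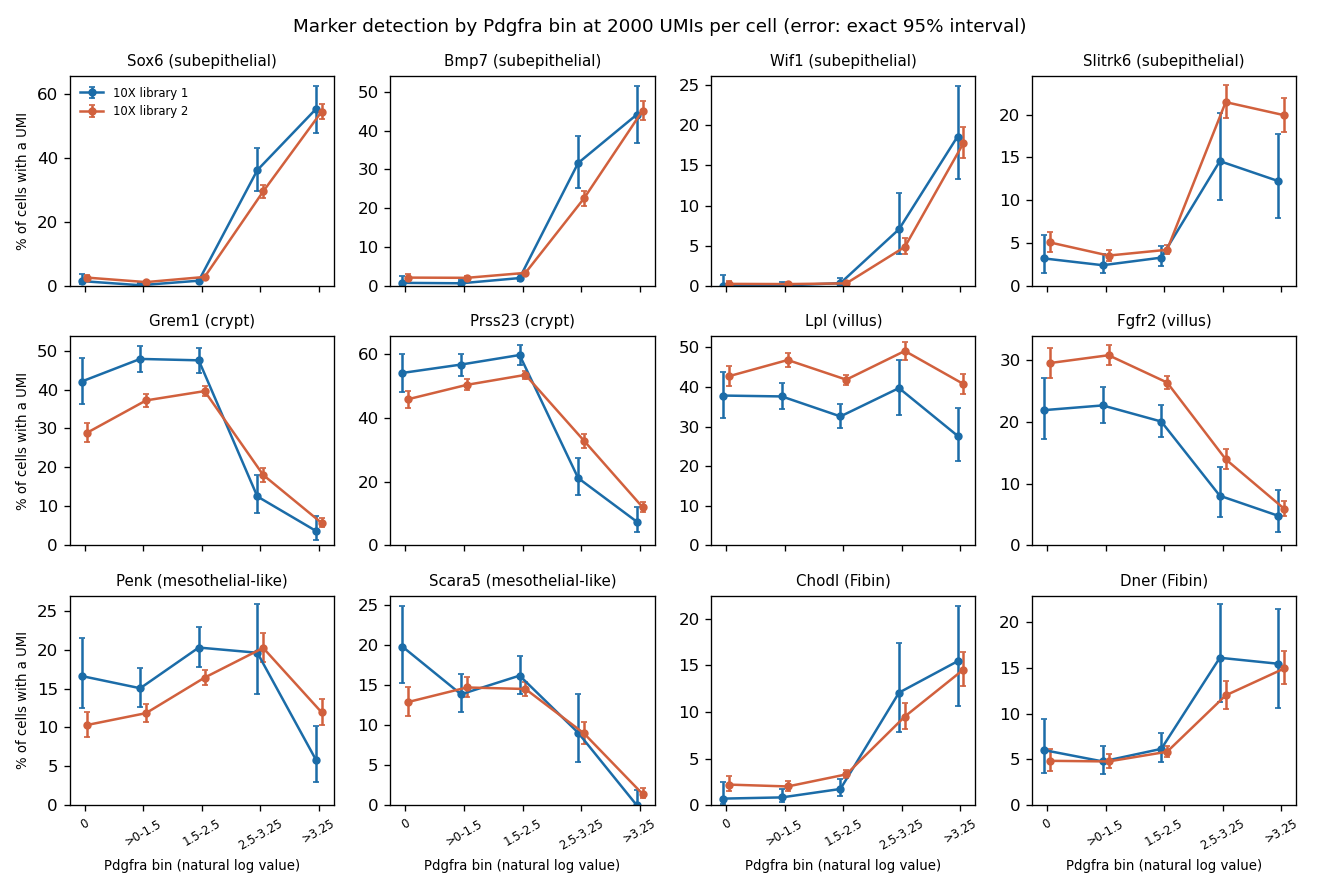
Share of cells in which each of the 12 marker genes was detected after thinning every cell to 2000 UMIs (y axis, percent), by Pdgfra bin (x axis), for the 2 10X libraries; error bars are exact 95% binomial intervals. Sox6, Bmp7 and Wif1 increase above 2.5 in both libraries while Grem1, Prss23 and Fgfr2 fall.

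High Pdgfra was shared by cells of more than 1 kind. Cells with a UMI of a subepithelial marker and none of a Fibin marker made up 74.7% of the highest bin in 10X_1 and 75.6% in 10X_2 at full depth. Cells with a Fibin marker alone made up a further 22.1% and 18.3%, cells with both 2.11% and 4.44%, and cells with neither 1.05% and 1.67%. In the intermediate bin, by contrast, cells with neither kind of marker were 68.4% and 65.6%, so nearly every cell of highest Pdgfra carried one signature or the other.

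Clusters made without Pdgfra and without the 12 markers gave the same picture. Of 12 clusters of all 17630 cells, 8 were called fibroblast and 1 mesothelial-like. A mixed cluster, a smooth muscle-like one and one like interstitial cells of Cajal made up the rest. The 9 held 16421 of the 16891 10X cells. Names were rebuilt here and end in "-like", since the authors' own cell labels were not used. The marker lists behind the names include the 12 markers, so shares of these markers by named cluster are not independent of the names. Of the 3 villus-like clusters, 2 had none of their own markers among their 10 genes of highest fold, and hemoglobin genes led 1 of these.

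Pdgfra was high in 3 clusters. In subepithelial-like cluster A, led by Wif1, Inhbb and Bmp3, it stood at 29.0 UMIs per 10,000 in 10X_1 and 34.2 in 10X_2, a mean of 31.6 ± 3.64 (SD, n = 2 libraries). In the Fibin-like cluster, led by Thbs2 and Chodl, it stood at 25.6 and 23.5 (24.6 ± 1.49). In subepithelial-like cluster B, led by the endothelin receptor gene Ednrb, it stood at 19.5 and 19.3 (19.4 ± 0.102). The order A, Fibin-like, B held in both libraries, and the gap between neighbours was larger than their SDs, though 2 libraries give a poor estimate of the spread.

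Below these came the mesothelial-like cluster at 7.03 and 7.45 UMIs per 10,000. The 2 crypt-like clusters lay at 4.06 and 5.72 and at 3.43 and 4.43, and the 3 villus-like clusters between 2.99 and 4.22 in 10X_1 and between 3.53 and 5.01 in 10X_2. Among these 5 clusters the gap between neighbours was smaller than the SD of at least 1 of the pair, except between the villus-like clusters at 4.62 ± 0.553 and 3.99 ± 0.477, which kept that order in both libraries. Cluster B held 2.77 times the level of the mesothelial-like cluster in 10X_1 and 2.59 times in 10X_2. The mixed cluster, at 2.14 and 1.88, and the smooth muscle-like cluster, at 0.880 and 1.45, were lowest of the clusters found in both libraries with 10 or more cells.

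Detection at equal depth kept the gap. At 2000 UMIs a Pdgfra UMI was present in 97.8% and 99.2% of cluster A cells, 97.8% and 95.7% of Fibin-like cells and 92.2% and 93.7% of cluster B cells. It was present in 47.8% and 58.3% of crypt-like and 51.4% and 56.8% of villus-like cells. In smooth muscle-like cells, of median depth 8111.5 and 6150.5 UMIs, the share was 23.3% and 17.9%. On the Smartseq2 plates the mean corrected natural log value in cluster A was 3.41 on SS2_1 and 3.42 on SS2_2, against 3.34 and 3.47 in the 10X libraries, and in villus-like cells it was 1.45 and 1.54 against 1.35 and 1.49. The plates therefore gave cluster A and villus-like levels close to those of the droplets, from 24 and 42 cluster A cells. Since plate values were corrected during integration with the 10X cells, this is not an independent comparison.

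**Figure D2:**
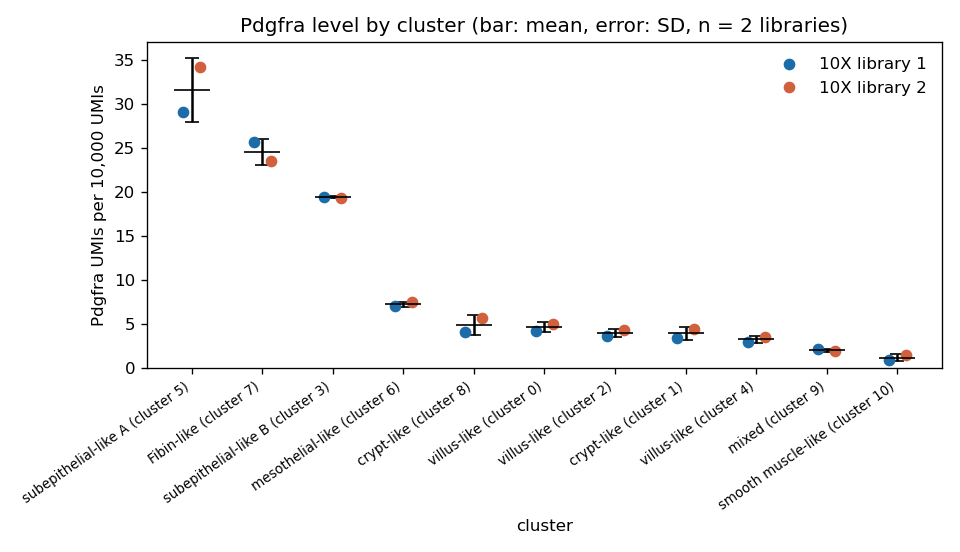
Pdgfra in each cluster as pooled UMIs per 10,000 (y axis) by cluster (x axis), with 1 point per 10X library, a bar at the mean and error bars of 1 SD over 2 libraries. Clusters were made without Pdgfra and are ordered by level, and subepithelial-like A, Fibin-like and subepithelial-like B lie between 19.3 and 34.2, above every other cluster, of which the next reaches 7.45.

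The bins were therefore mixtures whose makeup changed with dose. Villus-like cells were 53.7% of the intermediate bin in 10X_1 and 57.6% in 10X_2, and crypt-like cells 36.2% and 27.3%. In the high bin cluster A made up 30.1% and 16.6%, cluster B 24.3% and 37.1%, Fibin-like cells 19.4% and 14.1% and villus-like cells 12.6% and 16.9%. In the highest bin cluster A was 60.0% and 54.3%, cluster B 15.8% and 24.8% and Fibin-like cells 23.7% and 20.1%, while villus-like cells were 0.526% and 0.309%. Read the other way, 63.0% and 71.7% of cluster A cells but 28.0% and 28.6% of cluster B cells lay in the highest bin. A mean over a bin does not tell a larger share of one kind of cell from more RNA in each cell, and this holds for every difference between bins below.

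**Figure D3:**
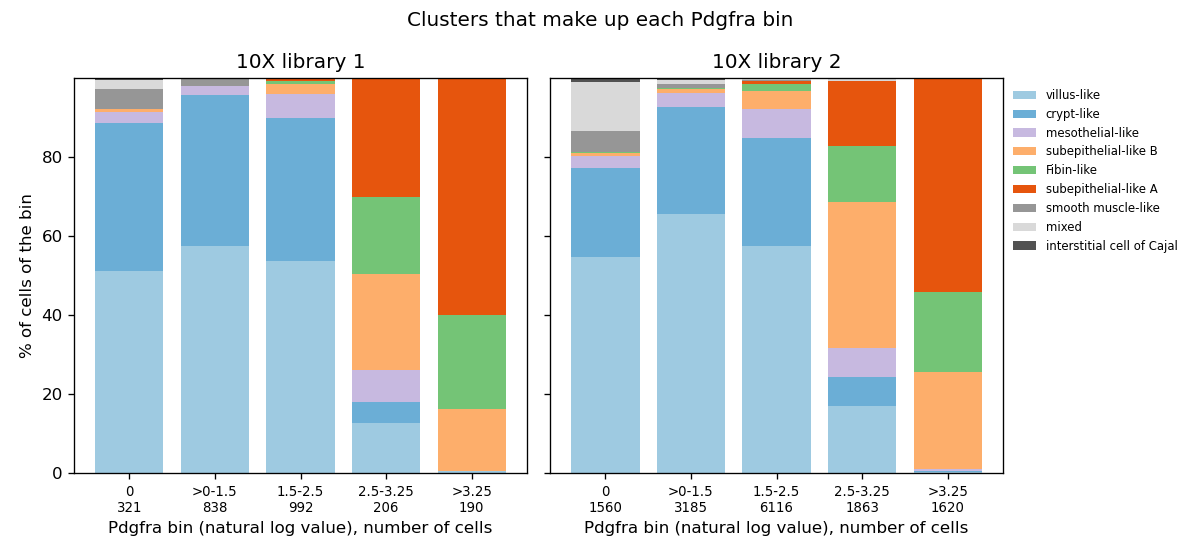
Makeup of each Pdgfra bin (x axis) as percent of its cells in each kind of cluster (y axis), for 10X_1 and 10X_2. Villus-like and crypt-like cells are most of each of the lower 3 bins, and subepithelial-like A, B and Fibin-like cells fill nearly all of the highest.

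Within single clusters the shares of cells with a marker are given as a description, since cells are not replicates. In cluster A, Sox6 was detected at 2000 UMIs in 75.8% of high and 78.1% of highest cells of 10X_1, with overlapping intervals, and in 36.8% of 38 intermediate, 67.3% of high and 73.2% of highest cells of 10X_2. Wif1 in cluster A was found in 21.0% and 29.8% of high and highest cells of 10X_1, and in 10.5% of intermediate, 21.7% of high and 29.9% of highest cells of 10X_2, with overlapping intervals in 10X_1. The Sox6 difference between the intermediate and high bins of 10X_2 rests on 38 cells and 1 draw of UMIs: at full depth Sox6 was found in 92.1%, 96.8% and 98.5% of the intermediate, high and highest cells of cluster A there, at 4.65, 5.57 and 6.66 UMIs per 10,000. In cluster B, Slitrk6 was found in 44.8% to 46.9% of high and highest cells of 10X_1 and in 44.2% and 48.6% of those of 10X_2, with overlapping intervals, whereas in cluster A it was found in 9.68% and 8.77%, and in 23.9% and 14.8%. So in the high and highest bins Slitrk6 was more frequent in cluster B than in cluster A.

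In Fibin-like cells of 10X_2 the Fibin markers were more frequent and the crypt markers less frequent in the highest than in the intermediate bin. The limits of this cluster were not firm. It held 719 cells of 10X_2, but 515 with 30 components and 543 without the cells of highest doublet score. Whether the shares below hold in those smaller sets was not tested. Chodl was found in 54.4%, 58.7% and 70.7% of the intermediate, high and highest Fibin-like cells of 10X_2 and Dner in 49.1%, 66.0% and 72.3%. Grem1 was found in 38.6%, 20.8% and 15.1% of them and Prss23 in 55.3%, 34.4% and 16.7%. In 10X_1, with 40 high and 45 highest cells, the intervals of the bins overlapped for all 4 genes: Chodl was found in 24 and 29 cells, Dner in 29 and 28, Grem1 in 12 and 6 and Prss23 in 1 and 4. Sox6 was found in at most 1.54% of Fibin-like cells in any bin.

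The bins were next compared across all genes. Mean natural log values per library and bin were fitted with limma, with a term for library, for 1768 genes detected in at least 5% of the cells of some bin, and calls used p-values adjusted by the Benjamini-Hochberg method at a threshold of 0.05. The lowest steps changed little. Between the low and intermediate bins limma called 0 genes (53 at an unadjusted p under 0.05), and at 2000 UMIs again 0 (26 unadjusted). Between the zero and low bins 235 genes were called, 13.3% of those tested (12.6% higher and 0.735% lower), but 1 at 2000 UMIs (0.0566%), the smooth muscle gene Lmod1, which was lower. The direction turned with the scale: with values pooled over the cells of a bin, 57 genes were called (3.22%), 3 higher (0.170%) and 54 lower (3.05%). Among the lower ones were 9 of 10 contractile genes, Myh11 by 2.14 and Acta2 by 1.42 natural log units, and smooth muscle-like cells made up 4.98% and 5.51% of the zero bin. The higher calls at own depth cannot be told apart from the lower depth of the zero bin.

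Nearly all of the change lay above 2.5. From the intermediate to the high bin 587 genes were higher and 428 lower, 57.4% of those tested in either direction, 33.2% higher and 24.2% lower. At 2000 UMIs the counts were 429 and 329 (24.3% and 18.6%, together 42.9%), and 740 genes were called in the same direction both ways. Pooled values gave 614 and 435 (34.7% and 24.6%, together 59.3%). From the high to the highest bin 390 genes were higher and 223 lower (34.7% of those tested, 22.1% higher and 12.6% lower), or 240 and 135 at 2000 UMIs (13.6% and 7.64%, together 21.2%), with 347 shared. The step to the highest bin depended on the scale: with values pooled over the cells of a bin, 124 genes were higher and 305 lower (7.01% and 17.3%, together 24.3% of those tested). Without the cells of highest doublet score the counts at these steps were 1043 and 607. Within subepithelial-like cells alone, limma called 4 genes at the step from intermediate to high (275 at an unadjusted p under 0.05), a fit added after the other counts were seen and resting on few intermediate cells in 10X_1. It called 1 gene at the upper step, Trp53i11, which was higher by 0.51 (adjusted p = 0.0211), and 197 genes had an unadjusted p under 0.05.

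**Figure D4:**
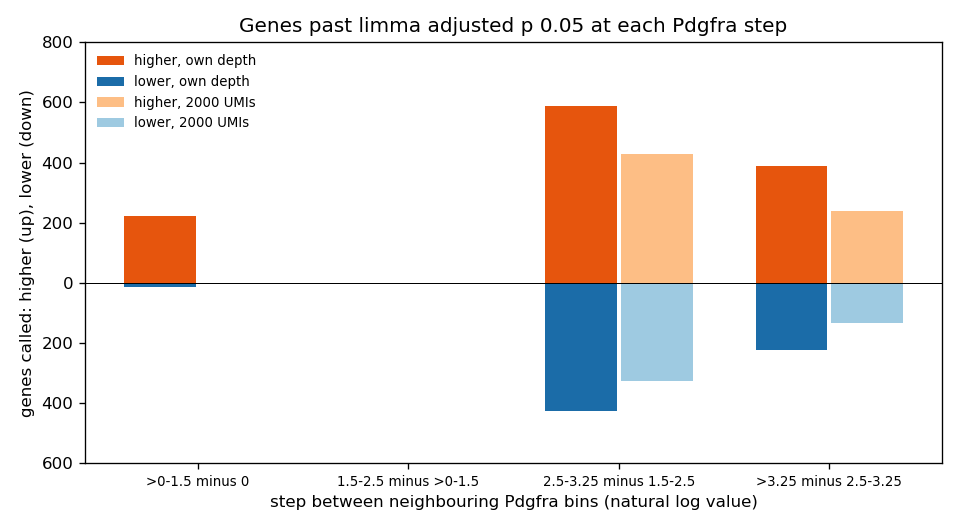
Number of genes called by limma as higher (bars up) or lower (bars down) on the y axis at each step between neighbouring Pdgfra bins (x axis), with all cells at their own depth and thinned to 2000 UMIs. The steps above 2.5 hold 1015 and 613 calls, and the step from low to intermediate holds 0.

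Of the 12 markers, 7 were higher and 4 lower at the intermediate to high step, against 33.2% and 24.2% of all genes. Sox6 rose by 0.80 ± 0.05 (SE) natural log units with an adjusted p of 9.68e-06 in limma, by 0.89 in 10X_1 and 0.71 in 10X_2. Bmp7 rose by 0.63, Slitrk6 by 0.38, Chodl by 0.25, Dner by 0.20 and Wif1 by 0.18. Wif1 passed the filter on low values only through the high and highest bins, so it had to differ and its call adds nothing to the count. Lpl rose by 0.21, a call that was lost at 2000 UMIs (adjusted p = 0.158 in limma), and Penk, with a difference of 0.05, did not pass. Prss23 fell by 0.87, Grem1 by 0.80, Fgfr2 by 0.36 and Scara5 by 0.23. The median difference of the 12 was 0.19, beside 0.01 over all genes tested.

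At the step to the highest bin, 4 of the 12 were higher and 5 lower, beside 22.1% and 12.6% of all genes. Sox6 rose by 0.56, Bmp7 by 0.48, Wif1 by 0.32 and Chodl by 0.11. With pooled values 1 was higher, Wif1, and 6 were lower, Grem1 among them, so the calls of Sox6, Bmp7 and Chodl depended on the scale. Prss23 fell by 0.52, Penk by 0.28, Lpl by 0.25, Scara5 by 0.20 and Fgfr2 by 0.13, the last without a call at 2000 UMIs (adjusted p = 0.0652 in limma). Grem1 (-0.31), Slitrk6 (-0.05) and Dner (0.05) did not pass. Within subepithelial-like cells alone none of the 12 passed; Wif1 came nearest there, with a difference of 0.31 and an adjusted p of 0.0543 in limma.

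Neither PDGF ligand tested was called at the step to the highest bin. Of the 3 PDGF ligand genes in the table, Pdgfa and Pdgfc passed the filter on low values. Pdgfa stood at 0.170, 0.150 and 0.161 UMIs per 10,000 in the intermediate, high and highest bins of 10X_1 and at 0.225, 0.271 and 0.207 in 10X_2, and passed at neither step. Pdgfc was low everywhere and fell by 0.03 at the first step, a call lost at 2000 UMIs. Pdgfrl, a receptor-like gene without a kinase, did not pass at either step. Sparc, a matrix protein that binds PDGF, went from 72.2 to 37.3 and 28.8 UMIs per 10,000 in 10X_1 and from 47.8 to 32.7 and 26.3 in 10X_2, and fell by 0.42 at the first step. Of 6 genes for processing and co-receptors of PDGF, 2 were higher and 3 lower at the first step, beside 33.2% and 24.2% of all genes, and 1 and 2 at the second, beside 22.1% and 12.6%, of which 1 lower call held with pooled values.

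The proprotein convertases, which cut growth factor precursors, diverged. Pcsk6 stood at 1.02, 4.61 and 5.01 UMIs per 10,000 in the intermediate, high and highest bins of 10X_1 and at 1.14, 4.04 and 4.92 in 10X_2, and rose by 0.64 and then 0.28 natural log units, the second without a call with pooled values. Pcsk5 went from 4.87 to 1.77 and 0.612 in 10X_1 and from 4.37 to 2.37 and 0.975 in 10X_2, and fell by 0.65 and then 0.40. From the intermediate to the high bin each gene moved in the same direction in both libraries, as did all 1015 genes called at that step. Within subepithelial-like cells Pcsk6 was flat over the upper step (-0.04).

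Of 5 feedback genes of receptor tyrosine kinases tested, 4 were higher and 1 lower at the first step, beside 33.2% and 24.2% of all genes, and 4 were higher at the second, beside 22.1%; the medians were 0.24 and 0.25, beside 0.01 and 0.01 over all genes. Spry4, a Sprouty inhibitor of the pathway, stood at 0.171, 0.730 and 1.56 UMIs per 10,000 across the upper 3 bins of 10X_1 and at 0.257, 0.770 and 1.47 in 10X_2, and rose by 0.24 and 0.34. Dusp6, the gene of an ERK phosphatase, rose by 0.17 and 0.15, Spry1 by 0.44 and 0.25, and Etv1, an ERK-responsive transcription factor gene that also marks interstitial cells of Cajal, by 0.47 and 0.37. The markers Kit, Ano1 and Etv1 of those cells summed to 3.30 and 3.31 UMIs per 10,000 in the highest bins, of which Etv1 alone gave 3.21 and 3.18. Errfi1, an inhibitor of EGF receptors, fell by 0.20 at the first step. With values pooled over the cells of a bin, Spry4 was the only one of the 5 that kept its call at the upper step.

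Of the 7 hedgehog receptors and targets tested, 4 were higher and 2 lower at the first step, beside 33.2% and 24.2% of all genes. At the second 2 were higher and 2 lower, beside 22.1% and 12.6%, and with pooled values 0 and 3, beside 7.01% and 17.3%. Ptch1, the hedgehog receptor and a target of its pathway, stood at 2.31, 5.21 and 4.36 UMIs per 10,000 in the intermediate, high and highest bins of 10X_1 and at 2.17, 4.78 and 5.10 in 10X_2. It rose by 0.42 at the first step, while its 0.17 at the second was lost at 2000 UMIs and turned to -0.06 with pooled values and to -0.19 within subepithelial-like cells. Foxl1, a transcription factor gene known in cells under the epithelium, rose by 0.16 and then did not pass (-0.02), and Foxf2 rose by 0.36 and 0.15. Hhip, a hedgehog-binding inhibitor that also led the smooth muscle-like cluster, fell by 0.10 at the first step.

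All 4 BMP ligand genes in the table were higher at both steps, beside 33.2% and 22.1% of all genes, with medians of 0.48 and 0.39. Bmp7 is among these 4 and was already counted with the markers above. Bmp3 was scarce in the intermediate bin and may have passed the filter on low values only through the upper bins. Its call at the first step may therefore add nothing to the count. With pooled values Bmp2 and Bmp3 alone kept the call at the upper step. Bmp5 stood at 0.760, 5.89 and 6.19 UMIs per 10,000 across the upper 3 bins of 10X_1 and at 1.05, 6.15 and 8.65 in 10X_2, and rose by 0.95 and 0.42. Bmp3 was at 0.0221, 0.923 and 1.90 in 10X_1 and at 0.0511, 0.653 and 1.52 in 10X_2, and rose by 0.33 and 0.36. Bmp2 rose by 0.15 and 0.24, the first of which was lost at 2000 UMIs. For these ligands the intermediate bin lay below the high bin in both libraries, and Bmp5 alone of the 4 turned to a negative difference within subepithelial-like cells at the upper step (-0.06).

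BMP antagonists split. Beside Grem1, Chrdl1, a Chordin-like antagonist, fell at the first step, by 0.06 natural log units. Chrd, which encodes Chordin, rose by 0.20 and 0.23. Nbl1, a DAN family antagonist, stood at 7.21, 20.2 and 28.1 UMIs per 10,000 across the upper 3 bins of 10X_1 and at 6.44, 15.8 and 23.7 in 10X_2, and rose by 0.52 and 0.39. Chrd and Nbl1 were thus higher at both steps, while Grem1 and Chrdl1 were lower at the first and did not pass at the second.

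Wnt genes also divided, with 4 of 9 higher and 5 lower at the first step, beside 33.2% and 24.2% of all genes. The 4 include Wif1, which passed the filter only through the upper bins, so its call adds nothing to that count. It is also among those higher at the second step. At the second 3 were higher and 3 lower, beside 22.1% and 12.6%, but 1 and 3 at 2000 UMIs and 1 and 4 with pooled values. Wnt5a, a non-canonical ligand, stood at 0.415, 2.09 and 2.09 UMIs per 10,000 across the upper 3 bins of 10X_1 and at 0.430, 1.69 and 2.33 in 10X_2, and rose by 0.55 and 0.16, the second without a call at 2000 UMIs (adjusted p = 0.0638 in limma). Wnt4 rose by 0.51, and its 0.12 at the upper step, lost at 2000 UMIs, turned to -0.01 with pooled values and to -0.18 within subepithelial-like cells. Sfrp1, a secreted Wnt antagonist, went from 18.4 to 4.79 and 1.71 in 10X_1 and from 22.5 to 9.70 and 2.56 in 10X_2, and fell by 1.4 and 0.72. Rspo3, a Wnt agonist that sustains crypt stem cells, fell by 0.18 at the first step and did not pass at the second (-0.05).

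Of 10 contractile genes tested, 9 were higher at the first step, beside 33.2% of all genes, with a median of 0.74. Acta2, the smooth muscle actin gene, stood at 1.32, 21.8 and 23.1 UMIs per 10,000 in the intermediate, high and highest bins of 10X_1 and at 2.29, 17.4 and 20.8 in 10X_2, and rose by 1.55 ± 0.09 (SE, adjusted p = 9.68e-06 in limma). Tagln rose by 1.45, Myh11 by 0.70 and Mylk by 0.67. At the upper step 9 of 10 were again called higher, beside 22.1% of all genes, Acta2 by 0.61, but with pooled values 1 of the 10 kept its call, beside 7.01% of all genes, and Acta2 had a difference of 0.12. Within subepithelial-like cells Acta2 (-0.17), Tagln (-0.05) and Myh11 (-0.05) did not pass.

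Smooth muscle markers moved with these genes in part. The 6 markers summed to 0.260 UMIs per 10,000 in the intermediate, 3.33 in the high and 3.93 in the highest bin of 10X_1, and to 0.50, 2.82 and 3.41 in 10X_2. Myh11 made up nearly all of this, at 3.75 and 3.27 in the highest bin, whereas Actg2 stood at 0.0954 and 0.0956 and Cnn1 at 0.0753 and 0.0230. Myocd and Actc1 were at 0 in the upper 2 bins of 10X_1, while none of the 6 markers was at 0 in those of 10X_2. The zero bin, where 53.3% and 60.6% of the smooth muscle-like cells lay, had Actg2 at 1.03 and 1.28 and Cnn1 at 0.752 and 0.582. The 3 mural markers in the table likewise summed to 0.464, 1.61 and 1.92 across the upper 3 bins of 10X_1 and to 0.551, 1.63 and 2.16 in 10X_2, and their part in the results was not tested.

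Markers of CD34-positive stroma were lower above 2.5, and collagen genes divided. Of the CD34-positive stroma genes 4 of 5 were lower at each step and 0 higher, beside 24.2% and 12.6% of all genes lower. At the upper step 2 calls held at 2000 UMIs and 3 were made with pooled values. Igfbp6, an IGF-binding protein gene, went from 3.27 to 1.5 and 0.110 UMIs per 10,000 in 10X_1 and from 2.63 to 1.67 and 0.246 in 10X_2, and Mfap5, a microfibril gene, fell by 0.49 and 0.27. Of 8 collagen genes, 3 were higher and 4 lower at the first step, beside 33.2% and 24.2% of all genes, so the higher share is near that of all genes. At the upper step 3 were higher and 2 lower, beside 22.1% and 12.6%, and with pooled values 0 and 2, beside 7.01% and 17.3%. Col14a1, a fibril-associated collagen, fell by 1.11 and 0.54, and Col1a1, Col1a2 and Col3a1 fell at the first step. Col12a1, also fibril-associated, went from 0.910 to 5.48 and 7.4 in 10X_1 and from 1.21 to 4.64 and 7.67 in 10X_2, and the basement membrane chain gene Col4a5 rose by 0.43 and 0.22.

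All 11 immediate-early and heat shock genes, which respond within minutes to stimulation and to tissue dissociation, were lower at both steps, beside 24.2% and 12.6% of all genes, with medians of -0.58 and -0.43; at 2000 UMIs the counts were 11 and 10. Egr1 stood at 41.1, 15.7 and 7.13 UMIs per 10,000 across the upper 3 bins of 10X_1 and at 43.5, 23.3 and 10.4 in 10X_2. Junb went from 28.6 to 13.4 and 7.03 and from 27.5 to 16.2 and 8.66. Cells of high Pdgfra thus carried less of these transcripts in both libraries, and the part of this in the other differences was not tested.

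Of 9 tested genes listed for the villus tip, 7 were higher and 1 lower at the first step, beside 33.2% and 24.2% of all genes, and 2 and 1 at the second, beside 22.1% and 12.6%. With pooled values these counts were 8 and 0 and then 0 and 1. Adamts18 and Lama5 are among the 7 higher at the first step. Whether they passed the filter only through the upper bins is not given here, so their calls may add nothing to the count. Ednrb, an endothelin receptor gene, stood at 0.387, 6.11 and 3.42 UMIs per 10,000 in 10X_1 and at 0.602, 6.18 and 6.39 in 10X_2, so its rise of 0.88 stopped at the high bin. Tnc, which encodes the matrix protein tenascin C, rose by 1.02 and 0.38, the second turning to -0.20 within subepithelial-like cells. Vegfa, the vascular endothelial growth factor gene, was at 0.636, 1.16 and 1.30 in 10X_1 and at 0.695, 1.4 and 1.68 in 10X_2, and rose by 0.19 and 0.13, the second without a call at 2000 UMIs. Postn, a matrix gene, fell by 0.36 and 0.26, the first without a call with pooled values.

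The genes of largest difference at the first step, beside Acta2 and Tagln, were Myl9 (1.13), Ogn (1.02) and Tnc among those higher, and the complement genes C4b (-1.70) and C3 (-1.53), Fmo2 (-1.43), Sfrp1 and Fbln1 (-1.31) among those lower. At the upper step Abcc9 (0.58), the endothelin receptor gene Ednra (0.58) and Cald1 (0.57) stood beside Acta2 and Tagln, and C3 (-0.94), Egr1 (-0.75), Sfrp1, the lipid phosphatase gene Plpp3 (-0.70) and C4b (-0.70) were lowest. C4b and C3 were lower at both steps. Across the whole range, from zero to highest, 915 genes were higher and 429 lower (51.8% and 24.3%, together 76.0% of those tested), or 600 and 462 at 2000 UMIs (33.9% and 26.1%, together 60.1%). Of the 12 markers 6 were higher and 4 lower over that range.

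Last, genes were ranked by the correlation of their values with Pdgfra across the cells of each 10X library, using the weaker of the 2 libraries. All such values share the library and the depth of the cell, and cells are not replicates, so they are given as a description. Over 3890 genes the median Spearman rho was 0.0046 in 10X_1 and 0 in 10X_2. In both libraries 57 genes exceeded 0.3 and 26 lay under -0.2. A rho near 0 in a sparse gene does not show that it has no relation to Pdgfra.

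Abcc9 came first, with a rho of 0.49 in the 2547 cells of 10X_1 and 0.56 in the 14344 cells of 10X_2. Its level was 0.108, 2.58 and 4.12 UMIs per 10,000 in the intermediate, high and highest bins of 10X_1 and 0.220, 2.24 and 4.32 in 10X_2. Kcnj8, its neighbour in the genome, came next at 0.48 and 0.49 and stood at 0.0628, 1.77 and 2.64 and at 0.0953, 1.11 and 2.30 in the same bins. Both channel subunit genes were thus barely detected in intermediate cells and present in the upper bins, and Abcc9 rose by 0.74 and 0.58 and Kcnj8 by 0.52 and 0.38 at the 2 steps, the last without a call with pooled values. At 2000 UMIs a cell Sox6 led (0.39 and 0.40), with Abcc9 next (0.38 and 0.39).

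After these came Sox6 (0.47 and 0.53), the tetraspanin gene Tspan13 (0.45 and 0.47), the ferric reductase gene Cybrd1 (0.44 and 0.46), the adhesion molecule gene Alcam (0.44 and 0.44) and Bmp7 (0.43 and 0.48). Bmp3, the phospholipase gene Pla1a, the activin subunit gene Inhbb, the calcium channel gene Cacna1g, Hspa12a, Tmem158, Trp53i11 and Ltbp2 completed the first 15, all with a rho of at least 0.38 in each library. The lowest were the matrix gene Spon1 (-0.31 and -0.34), the leptin receptor gene Lepr (-0.29 and -0.30), Tppp3 (-0.29 and -0.29) and Plpp3 (-0.28 and -0.32), with Crip1, Col14a1, C4b, Sfrp1 and Ccdc80 also among the lowest 10. The companions above 0 were thus mostly genes of few cells, each detected in at most 23.3% of the cells of a library, and those below 0 in at least 61.7%.

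**Figure D5:**
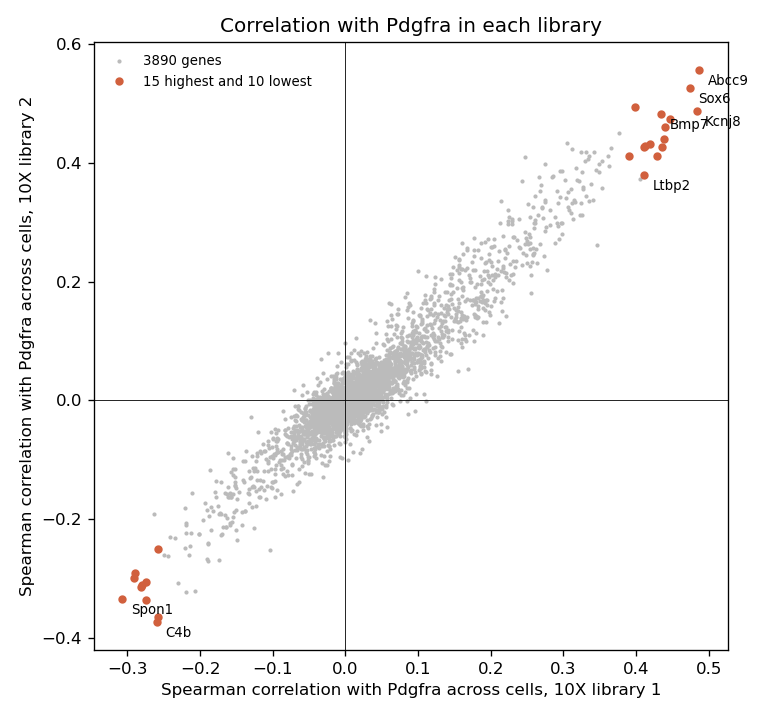
Spearman correlation of each of 3890 genes with Pdgfra across the cells of 10X_1 (x axis) and of 10X_2 (y axis), with the 15 highest and 10 lowest genes in colour. Abcc9, Kcnj8 and Sox6 lie at the upper right end and Spon1 and C4b at the lower left.

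Of the other markers, Wif1 ranked 32 (0.33 and 0.34), Slitrk6 241 (0.16 and 0.26) and Chodl 222 (0.19 and 0.17) from the top, whereas Lpl lay near the middle (0.03 and 0.00). Grem1 (-0.19 and -0.17), Prss23 (-0.18 and -0.18) and Fgfr2 (-0.17 and -0.23) were among the lowest 46 of all. On the Smartseq2 plates the ranking was not uniform: Abcc9 had a rho of 0.53 over the 379 cells of SS2_2 and -0.07 over the 360 of SS2_1, and Sox6 one of 0.34 and -0.07.

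The companions depended on which cells were compared. Among fibroblast and mesothelial-like clusters without the subepithelial-like ones, 1 of the 15 remained in the first 15, and the leaders were Cox8b (0.31 and 0.31) the growth factor gene Ptn (0.30 and 0.33) and the Fibin marker Chodl (0.26 and 0.28), beside Ank1 and Pla2g7. Without the Fibin-like cells too, none of the 15 remained and the leader, C3, had a rho of 0.15 and 0.16. Within cluster A, 3 of the 15 remained, Trp53i11 (0.40 and 0.30), Bmp7 (0.38 and 0.25) among them, and Slitrk6 had a rho of -0.28 and -0.22. Within cluster B, 4 remained, Abcc9 (0.23 and 0.23) among them. The ranking over all cells thus joined genes that tell the clusters apart with a few that varied with Pdgfra inside a cluster.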

How the data were processed

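The authors deposited 1 table of natural log values, made per the study's methods in Seurat by dividing each cell's reads or UMIs by its total, scaling, adding 1 and taking the log, with Smartseq2 values corrected in integration on variable genes. Upstream, per the submitters' notes and the methods, 10X reads went through Cell Ranger 3.1.0 and Smartseq2 reads through Trim Galore 0.4.4, TopHat2 2.1.1 and featureCounts 1.4.6-p5, against mm10. The table lists 3891 genes with complete rows, which hold 23.6% and 22.6% of the UMIs of the 10X cells, and 1 row that ended early was left out. Since the values are logs, limma replaced count models. Whole UMIs were recovered for 100% of 10X values (tolerance 0.01, scale 10000).

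Cells were thinned to 2000 UMIs (seed 7) for shares. Clusters came from all genes but Pdgfra and the 12 markers (3878 genes, Seurat 5.3.0, 20 components, resolution 0.4). Their names rest on lists of markers that include those 12, with a margin chosen after clusters were seen. Bins of at least 10 cells gave 10 library profiles, compared with limma 3.58.1 in R 4.3.3 for genes detected in 5% of the cells of some profile. A pseudocount of 0.05 entered pooled values before the log. Scripts were tested on simulated data, in which the shallow cells of the zero bin shifted mean log values, so comparisons with that bin are given beside those at 2000 UMIs. Scrublet (Scanpy 1.11.5) marked 6 and 709 cells by its own threshold, and 52 and 1646 of highest score were left out as an alternative. Members and lists were chosen with earlier results of these data known. Genes named are the 12 markers, genes of the lists, at most 5 a direction a comparison, and the 15 highest and 10 lowest correlations. Some genes that this rule names are not reported here.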

Additional observations from a re-analysis of the deposited data

How the results depend on the processing

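The steps above 2.5 stand on 2 libraries, so the spread between replicates is poorly known, and leaving out 1 leaves no test. Each of the 210 single-gene differences kept its direction in either library where it was called. Many of these genes were picked for having the same sign in both libraries, so that outcome was largely fixed in advance. Each library held every bin and was therefore the pairing of the main fit. Without that replicate block the low minus zero step gave 8 genes in place of 235 and the highest minus high step 375 in place of 613. The low minus zero count was also 492 with quartile bins, 0 with 4 libraries, 1 at 2000 UMIs, 113 in fibroblast clusters and 57 with pooled values. Quartile bins, whose top limits lay lower, gave 0 genes at the high minus intermediate step in place of 1015 and 1214 at the highest minus high step, which gave 375 at 2000 UMIs, 329 with no filter on low values and 1 in subepithelial-like cells. The intermediate minus low step gave 0 genes in limma under each of these alternatives over all or fibroblast clusters, with 20 to 105 at an unadjusted p under 0.05, and 13 in subepithelial-like cells, which are few in those bins.

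Of the 15 genes of highest correlation, 6 were shared at 2000 UMIs. In alternatives chosen after seeing the data, 1 was shared without subepithelial-like cells, 0 when Fibin-like cells were left out too, 3 within cluster A, 4 within cluster B and 0 within Fibin-like cells. The level of the lowest of clusters A, B and Fibin-like was 2.68 times that of the next class, 2.53 with 30 components, 2.82 without cells of high doublet score and 2.59 to 2.77 leaving out a library.

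Some differences turned direction, and the cause was not tested. With quartile bins these were Slitrk6 (0.31), Lpl (0.096) and Foxl1 (0.13) at the upper step, Lpl (-0.042), Scara5 (0.029) and Pcsk5 (0.018) at the step before, and Lpl (0.098) and Penk (0.15) from zero to highest. In subepithelial-like cells at the upper step they were Chodl (-0.0039), Acta2 (-0.17), Tagln (-0.054), Pcsk6 (-0.041), Ptch1 (-0.19), Foxf2 (-0.045), Bmp5 (-0.056), Wnt4 (-0.18), Myh11 (-0.052) and Tnc (-0.20). With pooled values they were Ptch1 (-0.056) and Wnt4 (-0.015), and in fibroblast clusters from zero to low Actg2 (0.0048) and Lmod1 (0.0028).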
